A study of Mus musculus with 12 samples.

Results

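Wild-type mouse spinal cord at day 15 was compared with wild-type spinal cord at day 4. The 6 arrays are those whose titles name wild type at 1 of these days, 3 biological replicates per day, out of 12 arrays in the series; the other 6 hold Olig2cre/DA-Cat littermates at the same days. In Olig2cre/DA-Cat mice the Olig2 driver brings Cre recombinase to the oligodendrocyte lineage, and DA-Cat denotes an active form of β-catenin; wild-type mice are described by no allele or agent of their own. Every sample is described as ventrolateral white matter of the cord injected with lysolecithin, a detergent-like lipid that strips myelin. The treatment protocol speaks of young adults with lesions or without, whereas the days are tagged as a developmental stage and neither day occurs in that protocol. What the days are counted from therefore cannot be told from the labels, and the number of animals behind a sample is not stated, so the p-values measure the spread between these samples.

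In mouse spinal cord the weeks after birth are the time in which neurons stop extending axons and change the subunits of their channels and receptors, and in which precursors leave the cell cycle and become oligodendrocytes. Oligodendrocytes wrap axons in myelin, a lipid-rich membrane built from cholesterol, galactolipids and a small set of proteins, while astrocytes and microglia take on their mature surface proteins. After an adult demyelinating lesion, precursors also divide and form new myelin, along with many phagocytes. This is background and does not decide what the days stand for.

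The measure was a log2 signal per gene on a 3' expression array, with 18194 genes tested, 1 probe set for each. Levels are log2 signals and differences are log2, day 15 minus day 4, so that 1 is a 2-fold change; levels of different genes are not comparable. Array medians lay between 6.14 and 6.19, and 27 bacterial control probe sets, which show background, had a median of 3.08 and lay nearly all under 4.65. Over all probe sets, an array's mean correlation with the other replicates of its day was 0.995 to 0.997. Single pairs of arrays of different days correlated at 0.98 to 0.984. Over the 6 arrays the leading principal component parted the days and carried 82.2% of the variance. Neuron genes were bright although the samples are described as white matter: Rbfox3, the nuclear antigen of mature neurons, was at 12.22 to 12.48 at day 4 and 11.86 to 12.01 at day 15. Xist and Eif2s3y, RNAs of the X and the Y chromosome, were both well over background on 5 of the 6 arrays (Xist 11.0 to 12.3), while on replicate 2 of day 15 Xist was at 5.64 and Eif2s3y at 8.82.

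Between the days 8161 of 18194 genes passed the threshold (limma, Benjamini-Hochberg adjusted p under 0.05), 44.9%. Of all genes 21.3% were higher at day 15 (3869) and 23.6% lower (4292). Most of these differences were small: 4542 were under 0.5 log2. By at least 2-fold 473 genes (2.6%) rose and 559 (3.07%) fell, and 62 rose and 34 fell by 2 log2 or more. The median difference over all genes was -0.02, with quartiles of -0.21 and 0.17, and counts of list members below are to be read against these shares. The lists were drawn up with earlier results of these data known, so these counts describe their members and are no separate test. In bulk tissue a lower share of cells of a type and less RNA per cell cannot be told apart.

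Among the 15 genes with the largest rises were several of mature oligodendrocytes. Opalin, a glycoprotein of the oligodendrocyte surface, was at 5.92, 6.41 and 6.73 on the day 4 arrays and at 11.79, 11.70 and 11.46 on the day 15 arrays. It rose by 5.30 ± 0.21 (SE, adjusted p = 7e-09), 39.4-fold. Klk6, a secreted protease made by oligodendrocytes, went from 6.79, 6.84 and 7.10 to 11.71, 11.78 and 11.22, a rise of 4.66 ± 0.18. The myelin-related genes Cryab (a small heat shock protein, 3.07), Ppp1r14a (an inhibitor of myosin phosphatase, 3.05), Anln (the septin-binding protein anillin, 2.98) and Aspa (aspartoacylase, which frees acetate for lipid synthesis, 2.82) were also among them. These 15 were drawn from genes whose days do not overlap, so the 3 values of day 15 lie above those of day 4 by choice.

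The other genes of that group belonged to several kinds of cell. Fam107a, an actin-associated protein, rose from 6.15, 6.16 and 6.23 to 11.00, 11.06 and 10.87, by 4.80 ± 0.26 (SE, adjusted p = 4.67e-08). Kcng4, a modulatory potassium channel subunit, rose by 3.62, Pvalb, a calcium buffer of fast-firing neurons and fast muscle, by 3.57 (7.96, 8.33 and 8.15 to 11.86, 11.68 and 11.61), and the sodium channel subunit Scn4b by 2.86. Ighm, the heavy chain of immunoglobulin M, rose by 3.12 on its brightest probe set, but its 11 probe sets ranged from -0.24 to 3.12. Eva1a (2.95), Evi2a (2.90), the small GTPase Rab37 (2.86) and Ccdc28a (2.75) completed the group; Eva1a lay at 4.64 to 4.75 at day 4, near background, so its rise may be understated.

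The 15 genes with the largest falls included proteins of growing neurons and of the matrix. Cxadr, a cell adhesion molecule, fell from 10.49, 10.30 and 10.29 to 6.62, 7.09 and 7.24, a difference of -3.38 ± 0.13 (SE, adjusted p = 7e-09), 10.4-fold, although its 5 probe sets ranged from -3.38 to -0.07. Ablim3, an actin-binding protein, was at -2.77, the fibril-associated collagen Col14a1 at -2.73, Syce2, a protein of meiotic chromosomes, at -2.72, and the GTPase Rac3 at -2.59. Syt17 (-2.58), the neuronal transcription factor Neurod6 (-2.56), Crmp1 (-2.49), Amn (-2.44), the retinoic acid binding protein Crabp1 (-2.40) and the imprinted gene Nnat (-2.37) followed. The last were the matricellular proteins Ccn3 (-2.36) and Tnc (-2.29) and the glycosyltransferase B3gnt5 (-2.28), and Fam184b at -2.55, whose 3 probe sets ranged from -2.55 to 0.10. These too were drawn from genes whose days do not overlap.

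**Figure D1:**
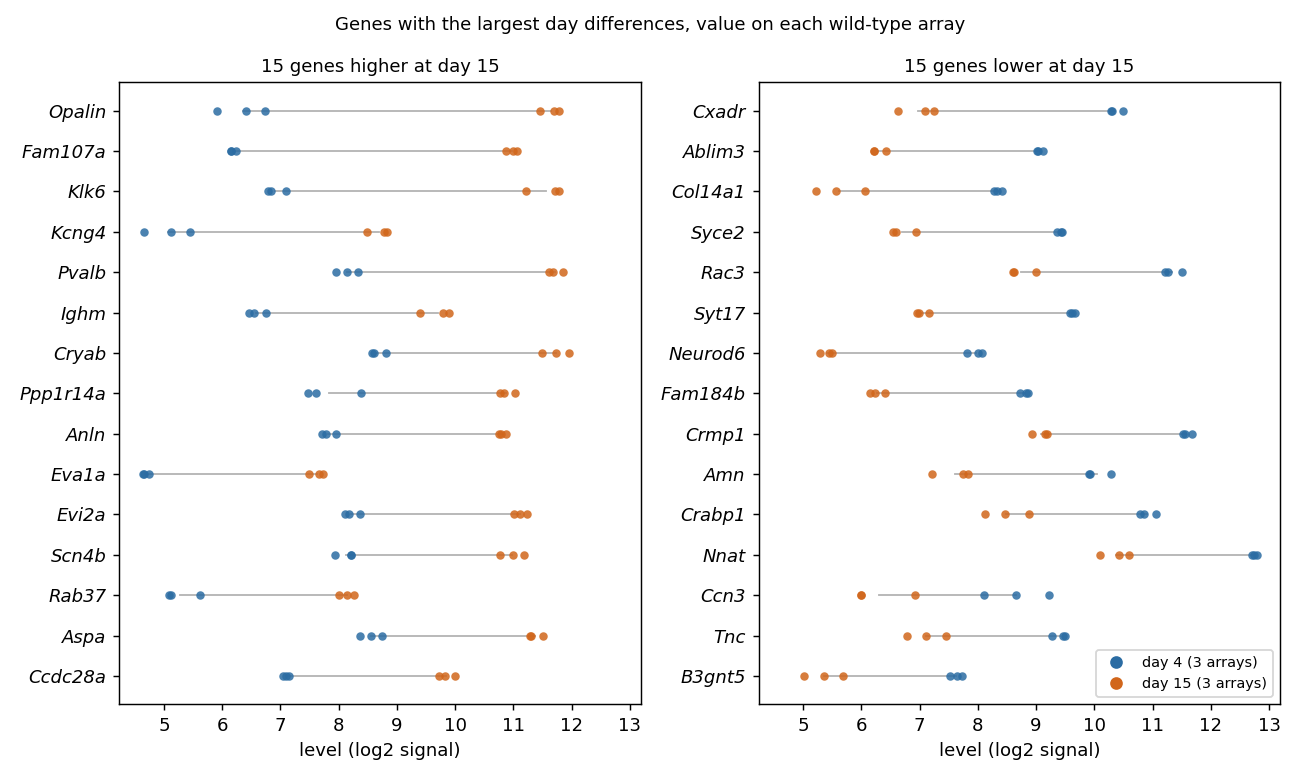
Log2 signal (x axis) of the 15 genes with the largest rises (left) and the 15 with the largest falls (right) on each of the 6 wild-type arrays, blue for day 4 and orange for day 15, with a line joining the group means. Every gene shows 3 points of one colour apart from the 3 of the other, and Opalin has the longest line, from 5.92 to 6.73 at day 4 to 11.46 to 11.79 at day 15.

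The genes of mature myelin moved together. All 27 measured members of the list of myelin and mature oligodendrocyte genes rose, between 0.35 and 5.30, with a median of 1.95, against 21.3% of all genes, and the days overlapped for none of the 27, as for 9702 of the 18194 genes tested; at an unadjusted p under 0.05, 0 were lower. Beyond the genes above, Hapln2, a link protein of the node of Ranvier, rose from 6.99, 6.78 and 7.04 to 9.34, 9.20 and 9.13, by 2.29 ± 0.09 (SE, adjusted p = 7e-09). Mog, on the outer face of myelin and chosen after its values were seen, went from 9.00, 8.77 and 9.01 to 11.75, 11.50 and 11.71, a rise of 2.73. Mbp, the protein that compacts myelin and likewise chosen after its values were seen, was at 14.25 to 14.40 at day 4 already and at 14.65 to 14.69 at day 15, near the array maxima of 14.71 to 15.05. It rose by 0.35 on this probe set, and over its 8 probe sets the difference ranged from -0.14 to 1.13.

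For earlier stages of the oligodendrocyte lineage the counts were mixed. Of 17 measured genes of the lineage and of newly formed oligodendrocytes 9 rose and 0 fell (median 0.41; 10 and 1 at an unadjusted p under 0.05, and 2 fell without replicate 3 of day 15). The transcription factor Nkx6-2 rose from 5.63, 5.65 and 5.67 to 7.67, 7.60 and 7.91, by 2.08 ± 0.10 (SE, adjusted p = 2.2e-08). Enpp6, a marker of oligodendrocytes that have just begun to differentiate, rose by 1.10, the deacetylase Sirt2 by 0.82 and Bcas1, of early myelinating cells, by 0.79. Of 13 precursor genes 8 fell and 1 rose, with a median of -0.29, where 23.6% of all genes fell. Pdgfra, the growth factor receptor that defines precursors, fell from 10.64, 10.65 and 10.59 to 9.72, 9.98 and 10.03, by 0.72 ± 0.09 (SE, adjusted p = 2.29e-05). The Notch ligand Dll3 fell by 1.59, Cacng4 by 1.27 and the proteoglycan Cspg5 by 1.24, whereas the matrix protein Tnr rose by 0.59.

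Enzymes of myelin lipids were mostly higher at day 15. Of 20 enzymes listed for glycolipid and long-chain fatty acid synthesis 14 rose and 3 fell (median 0.76). The list also holds enzymes that break sphingolipids down, among them a ceramidase and a sphingomyelinase. Fa2h, which hydroxylates the fatty acids of galactolipids, rose from 10.31, 10.11 and 10.37 to 12.06, 12.01 and 12.13, by 1.80 ± 0.08 (SE, adjusted p = 1.63e-08). The ceramidase Asah2 rose by 1.84, the desaturase Scd1 by 1.04 and the elongase Elovl5 by 0.84, whereas the sphingomyelinase Smpd3 fell by 1.71 and the ceramide synthases Cers6 and Cers5 by 0.73 and 0.17; without replicate 1 or 3 of day 15, or 2 or 3 of day 4, Cers5 did not pass. Of 19 enzymes of cholesterol synthesis 14 rose and 1 fell, with a smaller median of 0.39. Among them were Sc5d (1.03), Msmo1 (0.82), Ebp (0.81) and Hsd17b7 (0.73), all in the later, sterol part of the pathway, and Tm7sf2, a sterol reductase of the same part, fell by 0.42. Without replicate 3 of day 15, or without replicate 2 of day 4, 9 of the 19 rose.

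Genes of cell division fell as a group. Of 34 measured members 32 fell and 0 rose, with a median of -1.26, against 23.6% of all genes lower; at an unadjusted p under 0.05 the counts were also 32 and 0. Rrm2, the subunit of ribonucleotide reductase that limits the supply of DNA building blocks, fell from 9.20, 9.25 and 9.40 to 7.15, 6.78 and 7.38, by 2.18 ± 0.13 (SE, adjusted p = 9.59e-08). Of the mitotic genes, the kinase Bub1 of the spindle checkpoint fell by 1.67, the kinetochore motor Cenpe by 1.25 and Cdc20, which starts anaphase, by 1.01. On the day 15 arrays the mean level of the list was 6.40, 6.23 and 6.67, and on the day 4 arrays 7.57, 7.57 and 7.68. Tpx2 (-0.01) and Tyms (-0.17) did not pass. Without the dimmer 50% of genes 14 members fell, since fewer were tested.

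Promoters of genes of late cell cycle are known to carry CCAAT boxes and a cell cycle homology element. The letters of each were looked for in the windows from 250 bases before to 50 bases after the gene start, given by RefSeq for build GRCm38.p6, for the 28 of the 32 falling genes that had a window. TTTGAA and CCAAT were searched on both strands; a match of one can share no more than an end letter with a match of the other. TTTGAA was present in 17 of the 28 (60.7%), against 15.7% of 14453 tested genes with a window and 20.2% of all 27025 genes with a window. A gene was counted if any of its windows held the match. CCAAT was present in 25 (89.3%), against 42% and 41.1%. Both were present in 17 (60.7%), against 6.21% and 7.97%. A match is a run of letters and not a shown binding site. The shares were not computed for cell division genes that did not fall, so they describe this list and not the day difference. For display, genes on a chromosome that was set aside were passed over. The windows of the 4 other falling genes with both motifs and the smallest p are shown, so that the shared letters can be read. Capitals mark the matches, on either strand, and each window runs 5′ to 3′ along the gene. They are Cdc20 (chr4:118437294-118437593, minus strand), Mki67 (chr7:135716330-135716629, minus strand), Plk1 (chr7:122159185-122159484, plus strand) and Ccnb2 (chr9:70421505-70421804, minus strand).
Cdc20: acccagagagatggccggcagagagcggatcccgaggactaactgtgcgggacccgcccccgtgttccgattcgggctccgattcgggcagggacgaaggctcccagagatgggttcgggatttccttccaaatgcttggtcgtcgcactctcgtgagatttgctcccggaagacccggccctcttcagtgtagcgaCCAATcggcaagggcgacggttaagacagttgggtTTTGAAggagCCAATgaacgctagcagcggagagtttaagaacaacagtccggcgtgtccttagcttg
Mki67: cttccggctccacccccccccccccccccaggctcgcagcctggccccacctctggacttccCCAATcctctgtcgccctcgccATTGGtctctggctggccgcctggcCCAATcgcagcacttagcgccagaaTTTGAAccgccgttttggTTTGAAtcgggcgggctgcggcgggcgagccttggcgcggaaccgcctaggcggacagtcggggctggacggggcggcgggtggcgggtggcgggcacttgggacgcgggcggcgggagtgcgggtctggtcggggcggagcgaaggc
Plk1: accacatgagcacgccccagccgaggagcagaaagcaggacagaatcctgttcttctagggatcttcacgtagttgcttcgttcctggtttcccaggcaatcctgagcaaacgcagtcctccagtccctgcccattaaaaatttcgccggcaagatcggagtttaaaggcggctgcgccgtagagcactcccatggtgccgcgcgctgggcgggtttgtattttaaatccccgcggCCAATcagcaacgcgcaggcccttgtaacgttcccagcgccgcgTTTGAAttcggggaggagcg
Ccnb2: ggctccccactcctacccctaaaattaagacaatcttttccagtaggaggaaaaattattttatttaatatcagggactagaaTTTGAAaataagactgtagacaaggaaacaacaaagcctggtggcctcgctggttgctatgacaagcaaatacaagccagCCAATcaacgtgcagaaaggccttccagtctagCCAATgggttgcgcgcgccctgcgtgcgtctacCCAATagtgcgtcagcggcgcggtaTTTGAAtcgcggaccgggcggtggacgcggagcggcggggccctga

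In the Cdc20 window TTTGAA starts 18 bases before the gene start, between CCAAT matches that start 53 and 8 bases before it. Ccnb2 holds 3 CCAAT matches, 87, 54 and 21 bases before its start. All 4 genes fell because they were taken from the falling members. Cdc20, which activates the anaphase-promoting complex, went from 7.94, 7.98 and 8.08 to 6.98, 6.90 and 7.08. Mki67, the Ki-67 antigen of dividing cells, went from 8.70, 8.80 and 8.80 to 7.20, 6.71 and 7.51, a fall of 1.62. The mitotic kinase Plk1 went from 6.76, 6.86 and 6.75 to 5.83, 5.80 and 6.04, and cyclin B2 (Ccnb2) from 6.94, 7.04 and 7.27 to 5.47, 5.56 and 6.05. The days did not overlap for any of these genes, which were taken by their small p, nor for 9702 of the 18194 genes tested.

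Genes of DNA methylation and chromatin, and of fetal growth, also fell more than they rose. Of 18 chromatin genes 11 fell and 2 rose (median -0.46). Uhrf1, which brings the maintenance methyltransferase to replicated DNA, fell by 1.73, the chromatin protein Hmgb3 by 1.53, the remodeller Smarca1 by 1.10 and the maintenance methyltransferase Dnmt1 by 0.66, whereas the Polycomb proteins Cbx7 and Eed rose by 0.78 and 0.21. Eed did not pass without replicate 1 or 3 of day 15 or 1 or 2 of day 4, and 1 gene was then higher. Of 18 fetal and imprinted growth genes 10 fell and 0 rose (median -0.29; 11 and 2 at an unadjusted p under 0.05, and 1 rose without replicate 3 of day 15). Hmga2, an architectural protein of embryonic chromatin, was at 7.51, 7.49 and 7.50 at day 4 and at 6.26, 6.36 and 6.24 at day 15, a fall of 1.21 ± 0.06 (SE, adjusted p = 2.94e-08). The growth factor Igf2 fell by 1.54, Magel2 by 1.19 and Plagl1 by 0.84.

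**Figure D2:**
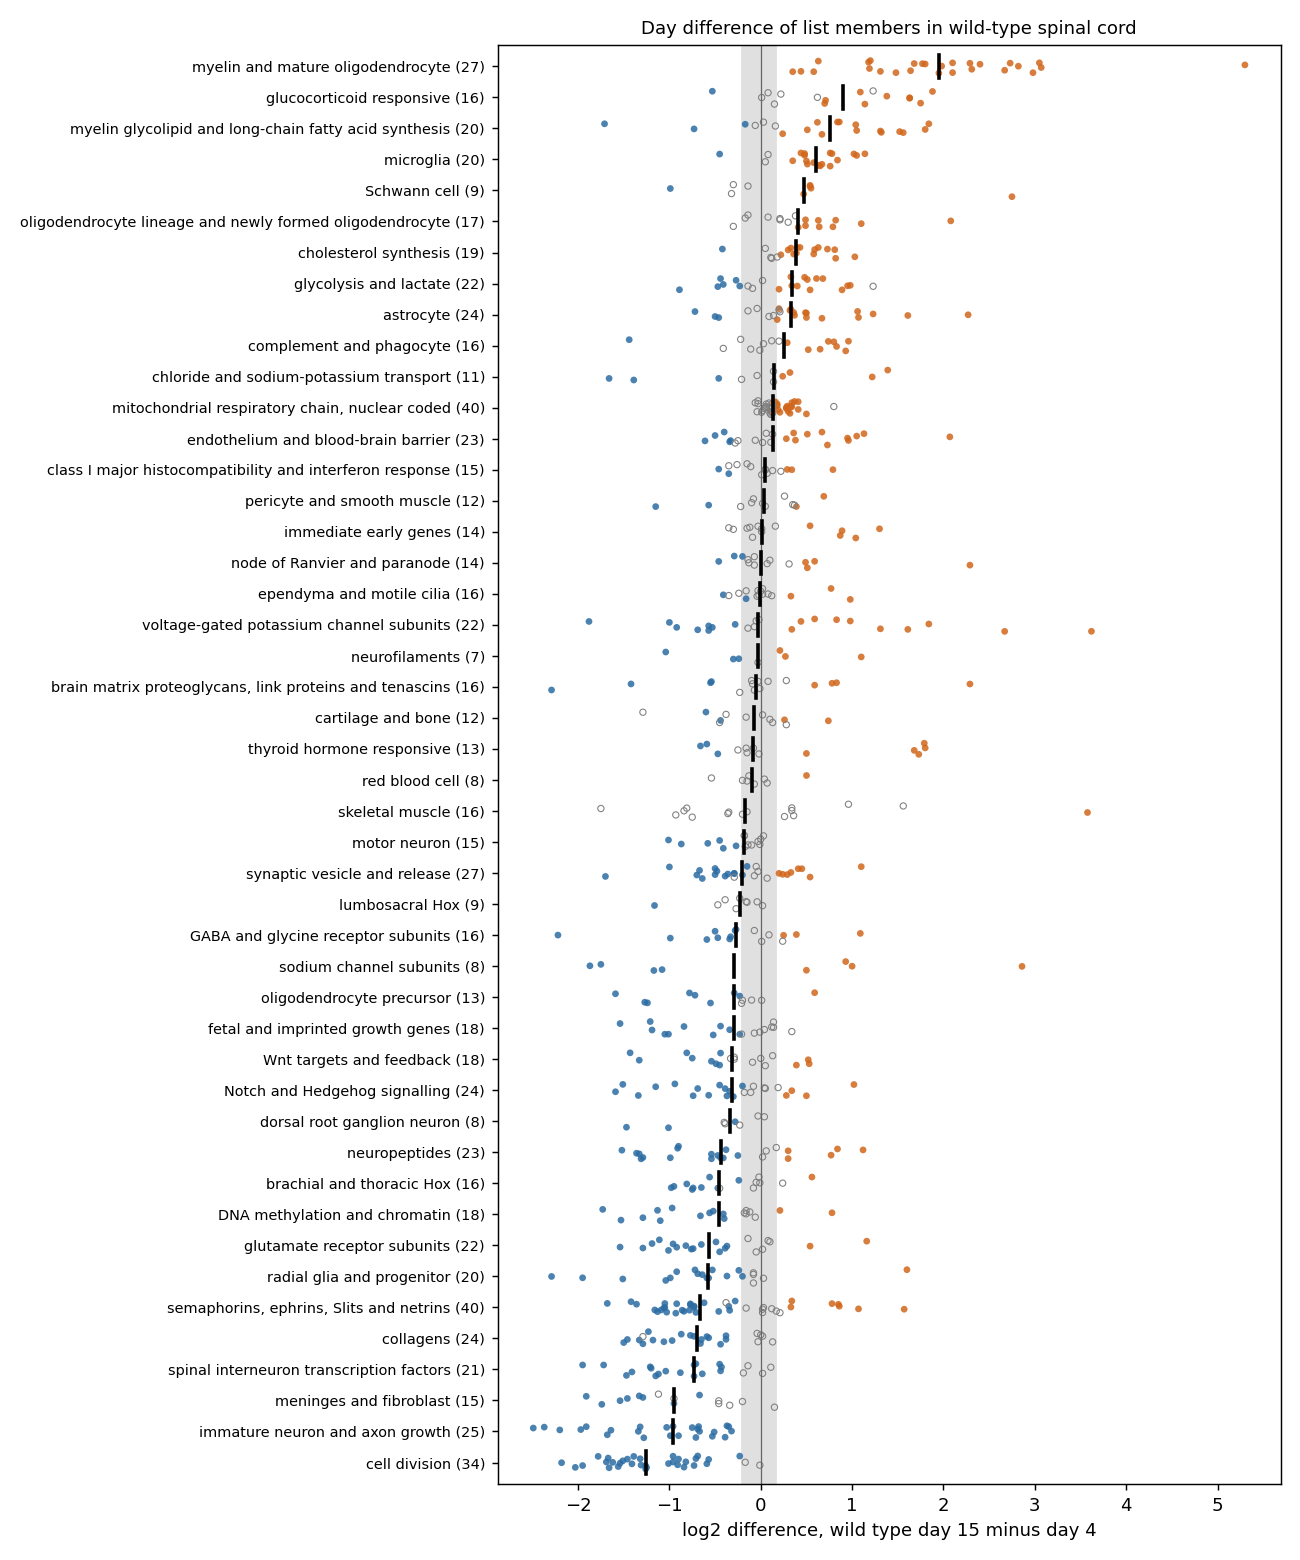
Log2 difference of each measured gene (x axis) in 46 gene lists (y axis, number of measured genes in brackets), orange for genes past the threshold and higher at day 15, blue for those lower, open circles for those that did not pass; a black bar marks a list's median and the grey band the quartiles of all genes, -0.21 to 0.17. Myelin genes have the highest median, 1.95, and cell division genes the lowest, -1.26.

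Genes of immature neurons and growing axons all fell. For the 25 measured members the median was -0.96, and 25 fell and 0 rose, also at an unadjusted p under 0.05. Gap43, a protein of growth cones, fell from 12.09, 12.14 and 12.17 to 10.13, 10.08 and 10.26, by 1.97 ± 0.07 (SE, adjusted p = 2.95e-09). The collapsin response mediators, which link guidance signals to microtubules, fell too: Crmp1 by 2.49, Dpysl3 by 1.91 and Dpysl5 by 1.64. Dcx, doublecortin of young neurons and chosen after its values were seen, fell by 2.20. The 3 day 15 values of the list's mean level lay between 10.10 and 10.14, below those of day 4, 11.23 to 11.27.

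The genes that steer axons moved the same way in most cases. Of 40 measured semaphorins, ephrins, Slits, netrins and their receptors 25 fell and 7 rose (median -0.66). The receptors Plxnc1 and Plxna1 fell by 1.68 and 1.09 and the ligands Sema3a and Efna5 by 1.06 and 1.05; the 6 probe sets of Plxnc1 ranged from -1.68 to 0.00. Among the rises, Sema4d, a semaphorin of oligodendrocytes, went from 9.54, 9.62 and 9.63 to 10.96, 11.29 and 11.24, by 1.57 ± 0.13 (SE, adjusted p = 1.22e-06). The netrin receptor Unc5b rose by 1.07, Sema3b by 0.86 and Sema3d by 0.85.

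Transcription factors that specify spinal interneurons fell in 17 of 21 cases and rose in 0 (median -0.73; the same counts at an unadjusted p under 0.05). Lhx1, a LIM homeodomain factor, fell from 8.75, 8.89 and 8.75 to 6.66, 6.90 and 6.98, by 1.95 ± 0.11 (SE, adjusted p = 6.58e-08). Ebf3 fell by 1.41, Lmx1b by 1.15 and Ebf1 by 1.12, the last with probe sets from -1.21 to 0.13. Of 15 motor neuron genes 6 fell and 0 rose (median -0.18; 6 and 0 at an unadjusted p under 0.05), the homeodomain factor Isl1 by 1.01, Chodl by 0.87, the receptor Ret by 0.58 and Lhx3 by 0.27. The enzyme of acetylcholine synthesis, Chat, did not pass at -0.14, nor did the vesicular transporter Slc18a3 at -0.18; both were chosen after their values were seen. Among Hox genes of the brachial and thoracic cord, which record position along the body, 9 of 16 fell and 1 rose (median -0.46), with Hoxc8 at -0.98 and Hoxb9 at -0.81 against Hoxd8 at 0.56. Of 9 lumbosacral Hox genes 1 fell, Hoxd10, by 1.17, and 2 fell without replicate 3 of day 4.

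Progenitor genes of radial glia fell in 15 of 20 cases and rose in 1 (median -0.58). Fabp7, a fatty acid binding protein of radial glia, fell from 13.83, 13.87 and 13.82 to 11.64, 11.68 and 12.34, by 1.95 ± 0.22 (SE, adjusted p = 1.67e-05). The matrix protein Tnc fell by 2.29, the Notch effector Hes5 by 1.51 and vimentin (Vim) by 1.04. Prom1, a membrane protein of progenitors that other cells also carry, rose by 1.60. Of 24 genes of Notch and Hedgehog signalling 14 fell and 4 rose (median -0.32). The receptor Notch3 fell by 1.15 and the effectors Hey2 and Hes6 by 1.34 and 0.69, while the Hedgehog inhibitor Hhip rose by 1.02, Shh by 0.50, Heyl by 0.34 and Hey1 by 0.28. Of 18 Wnt targets and feedback genes 8 fell and 3 rose. The inhibitor Sfrp2 was at -1.43, Myc at -1.33, Nkd2 at -0.81 and the receptor Fzd7 at -0.75, and the rises were Lgr5 (0.53), Prickle1 (0.52) and Nkd1 (0.39), each with probe sets of both signs. Nkd1 did not pass without any 1 of the 3 day 15 arrays or without replicate 2 or 3 of day 4.

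Ion channel genes rose and fell in turn. Of 8 measured sodium channel subunits 4 rose and 4 fell. The alpha subunits Scn1a and Scn8a, of mature axons, rose by 0.93 and 0.50, and Scn3a, Scn2a and Scn9a fell by 1.75, 1.17 and 1.08. Scn4b, a beta subunit, went from 7.94, 8.22 and 8.21 to 11.19, 10.99 and 10.78, while Scn3b, also a beta subunit, went from 11.17, 11.10 and 11.07 to 9.15, 9.21 and 9.38. The first rose by 2.86 ± 0.19 (SE, adjusted p = 2.29e-07) and the second fell by 1.87 ± 0.08 (SE, adjusted p = 7.93e-09). Scn2b rose by 1.00 on its brightest probe set. Probe sets of a gene differed in sign for Scn3a (-1.75 to 0.10), Scn8a (-0.28 to 0.65) and Scn2b (-0.07 to 2.15).

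Of 22 voltage-gated potassium channel genes 10 rose and 8 fell (median -0.03). Kcna1, which lies beside the paranode of myelinated axons, rose from 9.63, 9.67 and 9.62 to 12.41, 12.32 and 12.19, by 2.67 ± 0.11 (SE, adjusted p = 9.37e-09), 6.36-fold. Its partners Kcnab2 and Kcna2 rose by 1.84 and 1.61. Kcns2 fell by 1.88, Kcnd2 by 1.00, Kcnq5 by 0.92 and Kcnc4 by 0.69. For Kcna2 (-0.15 to 1.61) and Kcns2 (-1.88 to 0.03) other probe sets had the opposite sign. Of 14 genes of the node and paranode 4 rose and 3 fell (median 0.00). The rises were Hapln2 at 2.29, Sptbn4, the spectrin of the node, at 0.59, Epb41l3 at 0.51 and Nfasc at 0.49. The falls were Cntnap2 at -0.46, Opcml at -0.29 and Nrcam at -0.20. Nrcam did not pass without replicate 2 or 3 of day 15 or 1 of day 4, and without replicate 3 of day 4 5 of the 14 fell.

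Receptor subunits fell more often than they rose. Of 22 glutamate receptor genes 15 fell and 2 rose (median -0.57). The metabotropic receptors Grm3, Grm5 and Grm7 fell by 1.54, 1.01 and 0.76 and the kainate receptor subunit Grik1 by 1.11; the 3 probe sets of Grm7 ranged from -0.76 to 0.40. Grin2c and Gria3 rose by 1.16 and 0.54. Of 16 receptor genes for GABA and glycine 9 fell and 3 rose (median -0.27). Glra2, the glycine receptor subunit of the embryo, fell from 9.94, 9.84 and 9.83 to 7.52, 7.65 and 7.79, by 2.22 ± 0.10 (SE, adjusted p = 1.5e-08). Glra1, the adult subunit, rose from 9.55, 9.39 and 9.46 to 10.59, 10.52 and 10.56, by 1.09 ± 0.09 (SE, adjusted p = 7.31e-07). The subunits Gabra5 and Gabra4 fell by 0.99 and 0.50 and the scaffold gephyrin (Gphn) by 0.28. Gabra2 rose by 0.39, with probe sets from -0.23 to 0.39, and Gabrd, by 0.25, lay within background.

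Early and late members of 20 pairs of related genes were set side by side, of which 19 had both members measured. The pairs were chosen with earlier results of these data known, so their counts are a description and no test of a switch. In 12 pairs the early member fell and the late one rose, in 1 both rose (the link proteins Hapln1 at 0.78 and Hapln4 at 0.83), in 1 both fell (Dnmt3b at -0.56 and Dnmt3a at -1.13), and in 5 at least 1 member did not pass. The 12 included the NMDA receptor subunits Grin2d (-1.19) and Grin2c (1.16), the vesicle proteins Vamp2 (-0.67) and Vamp1 (1.10), the tenascins Tnc (-2.29) and Tnr (0.59), the intermediate filaments Ina (-0.30) and Nefh (1.10), Nes (-0.24) and Gfap (0.49), the potassium channels Kcnc1 (0.59, with probe sets of both signs) beside Kcnd2, and the glucose carriers Slc2a3 (-0.23) and Slc2a1 (0.95). They also included the calcium sensors Syt1 (-0.70) and Syt2 (0.33), where Syt2 did not pass without replicate 1 of day 15. Slc17a6 (-0.15) and Slc17a7 (0.24), carriers of glutamate into vesicles, depended on single arrays: Slc17a6 did not pass without replicate 1 or 2 of day 15 or any 1 of the day 4 arrays, and Slc17a7 without replicate 1 or 3 of day 15 or 1 or 2 of day 4. For the chloride carriers the direction was otherwise: Slc12a2, which brings chloride into cells, rose from 11.32, 11.28 and 11.35 to 12.57, 12.56 and 12.47, by 1.22 ± 0.07 (SE, adjusted p = 5.3e-08), and Slc12a5, which removes it from neurons, was at -0.21 (adjusted p = 0.0576). Grin2b fell by 0.96, but Grin2a lay at 3.93 to 4.24, within background.

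**Figure D3:**
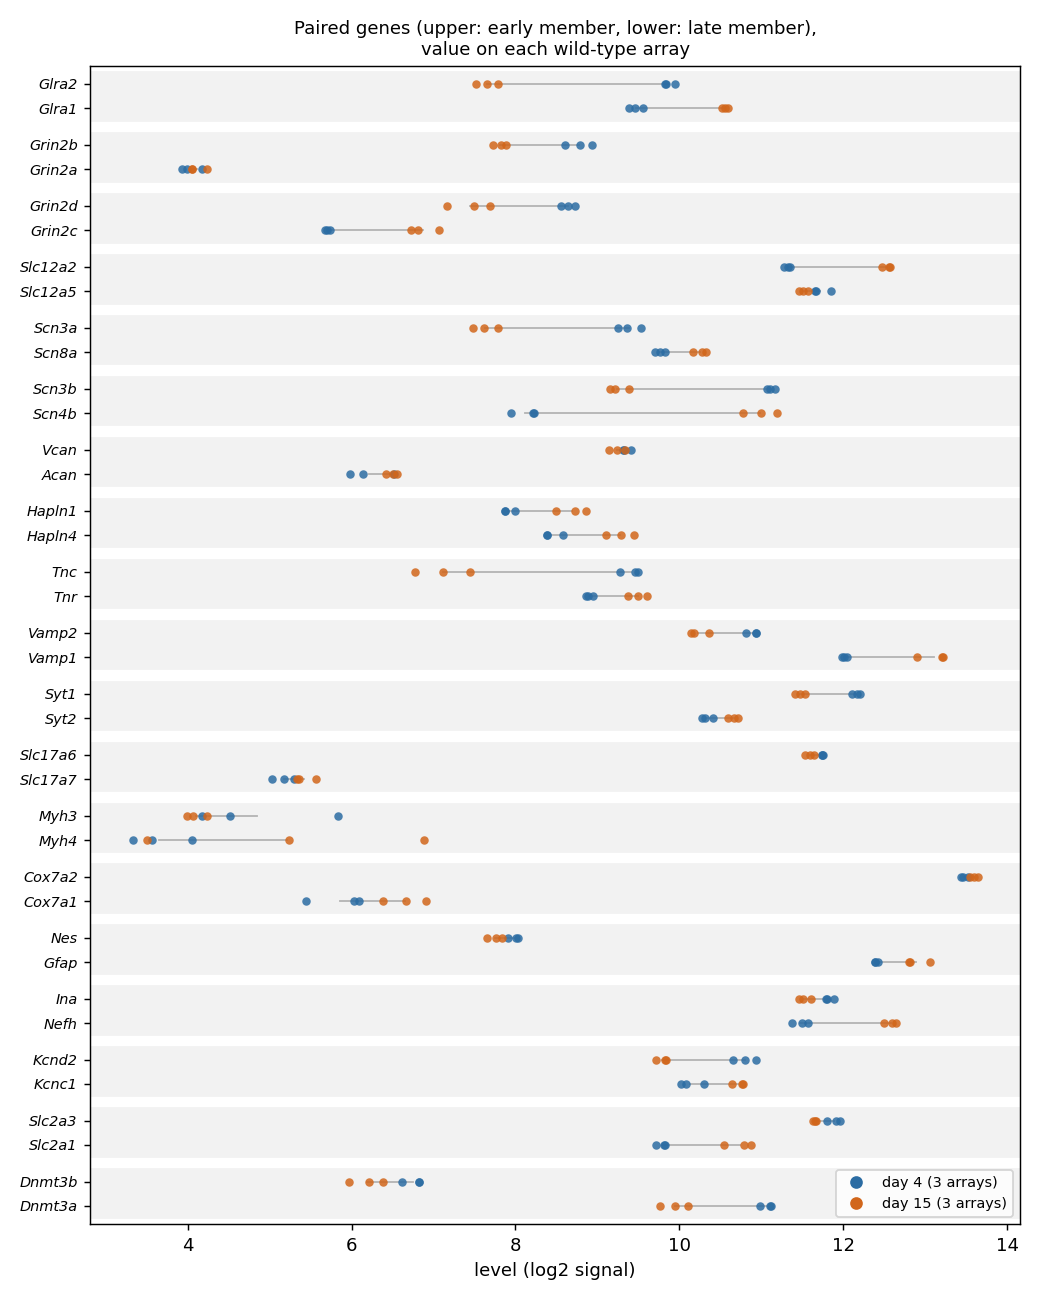
Log2 signal (x axis) on each of the 6 wild-type arrays for 19 pairs of genes, the early member above the late one in each grey band, blue for day 4 and orange for day 15, with a line joining the means. In the glycine receptor pair Glra2 falls from 9.83 to 9.94 to 7.52 to 7.79 while Glra1 rises from 9.39 to 9.55 to 10.52 to 10.59.

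Synaptic vesicle and release genes moved both ways, 8 higher and 14 lower of 27 (median -0.20). Snap25, of the fusion complex, rose from 12.51, 12.41 and 12.36 to between 12.89 and 13.02, by 0.54 ± 0.07 (SE, adjusted p = 7.25e-05), and Vamp1, Sv2a and the glycine carrier Slc6a5 by 1.10, 0.45 and 0.41. Stx1a, a syntaxin of the same complex, fell from 11.10, 11.10 and 11.02 to 9.18, 9.42 and 9.51, by 1.70 ± 0.11 (SE, adjusted p = 1.46e-07). Syn3 fell by 1.00, Syt1 by 0.70 and the priming factor Unc13a by 0.64. Without replicate 1 of day 15 only 4 members were higher, and without replicate 1 or 2 of day 4 only 5. Of 7 intermediate filament genes Nefh, Nefl and Nefm, which fill large axons, rose by 1.10, 0.27 and 0.21, and Vim, Ina and Nes fell. Of 23 neuropeptide and related genes 15 fell and 5 rose. The synapse organisers Cbln1 and Cbln2 were at -1.33 and -1.31, Crh at -1.52 and Npy at -1.29, and among the rises were Tac2 (1.12), Nmu (0.84), Vip (0.77) and Nppc (0.30). Without replicate 2 of day 4 only 3 of them rose, and Nppc did not pass without replicate 1 or 2 of day 4.

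Astrocyte genes rose in 15 of 24 cases and fell in 3 (median 0.33). Gjb6, the gap junction protein connexin 30 of mature astrocytes, rose from 8.44, 8.70 and 8.65 to 10.95, 10.84 and 10.82, by 2.27 ± 0.13 (SE, adjusted p = 8.18e-08). The calcium binding protein S100b rose by 1.61, the potassium channel Kcnj10 by 1.23 and the glutamate carrier Slc1a2 by 1.07. The other glutamate carrier, Slc1a3, fell by 0.72, Aldh1l1 by 0.50 and the GABA carrier Slc6a11 by 0.46. The list's mean level was between 10.96 and 11.05 at day 4 and between 11.41 and 11.45 at day 15.

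Microglia genes rose in 17 of 20 cases and fell in 1 (median 0.60). Tmem119, a surface protein of resident microglia, went from 7.39, 7.40 and 7.37 to 8.20, 8.04 and 8.24, a rise of 0.78 ± 0.07 (SE, adjusted p = 1.7e-06). The protease Ctss rose by 1.02, Trem2 by 0.67 and the growth factor receptor Csf1r by 0.63, while the transcription factor Sall1 fell by 0.45 on its brighter probe set and was at 0.24 on the other. Of 16 complement and phagocyte genes 8 rose and 1 fell, and 2 fell without replicate 3 of day 15. C1qa and C1qb, which tag material for removal, rose by 0.93 and 0.83, the receptor Clec7a by 0.96 and Cd9 by 0.80, whereas the growth factor Igf1 fell from 9.19, 9.35 and 9.25 to 7.52, 7.61 and 8.34, by 1.44 ± 0.22 (SE, adjusted p = 0.000146). Of 15 genes of antigen presentation and the interferon response 3 rose and 2 fell (median 0.05). Ifit3 (0.79) and B2m (0.29) had overlapping groups, and without replicate 1 of day 15 or 1 or 2 of day 4 only 1 member rose.

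Vessel genes rose more often than they fell. Of 23 genes of endothelium and the blood-brain barrier 11 rose and 5 fell (median 0.13). Slco1a4, an organic anion carrier of the barrier, rose from 8.23, 7.80 and 7.76 to 10.13, 10.03 and 9.85, by 2.07 ± 0.18 (SE, adjusted p = 1.43e-06), and so did the efflux pump Abcb1a by 1.13, the lipid carrier Mfsd2a by 0.96 and the thyroid hormone carrier Slco1c1 by 0.67. Plvap, a protein of leaky vessels, fell by 0.61, the amino acid carrier Slc7a5 by 0.50, the growth factor receptor Kdr by 0.40 and Cdh5 by 0.34. Cdh5 had overlapping groups, Kdr did not pass without replicate 1 of day 15 or 3 of day 4, and without replicate 1 or 2 of day 15 only 3 members fell, without replicate 3 of day 4 only 2. Of 12 pericyte and smooth muscle genes 2 rose and 2 fell, with Rgs5 at 0.69, Myh11 at 0.39, Notch3 at -1.15 and Pdgfrb at -0.57; 1 rose without replicate 3 of day 15 or without 1 or 2 of day 4, and 4 without replicate 3 of day 4.

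Matrix genes of connective tissue fell. Of 24 collagens 18 fell and 0 rose (median -0.70; 19 and 0 at an unadjusted p under 0.05, and 1 rose without replicate 2 of day 4). Col8a1 fell by 1.23, Col23a1 by 1.18, the basement membrane chain Col4a1 by 0.77 and the neuronal Col25a1 by 0.65. Markers of meninges and fibroblasts fell with them, 8 of 15 with 0 higher (median -0.95; 10 and 0 at an unadjusted p under 0.05), among them Igfbp2 (-1.91), the retinoic acid enzyme Aldh1a2 (-1.74), Crabp2 (-1.54) and the GABA carrier Slc6a13 (-0.95). Their mean level was 8.76, 9.36 and 9.14 at day 4 and 7.69, 7.95 and 8.77 at day 15, so replicate 3 of day 15 overlapped the day 4 arrays. How much meninges a sample held, and its part in the fall of the collagens, was not tested. Of 16 proteoglycans, link proteins and tenascins of brain matrix 4 rose and 4 fell (median -0.05). The fall of Ncan (-1.42), Ptprz1 (-0.55) and Spock1 (-0.54) stood beside that of Tnc. The groups did not differ past the threshold for Vcan (-0.10) and Acan (0.28).

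**Figure D4:**
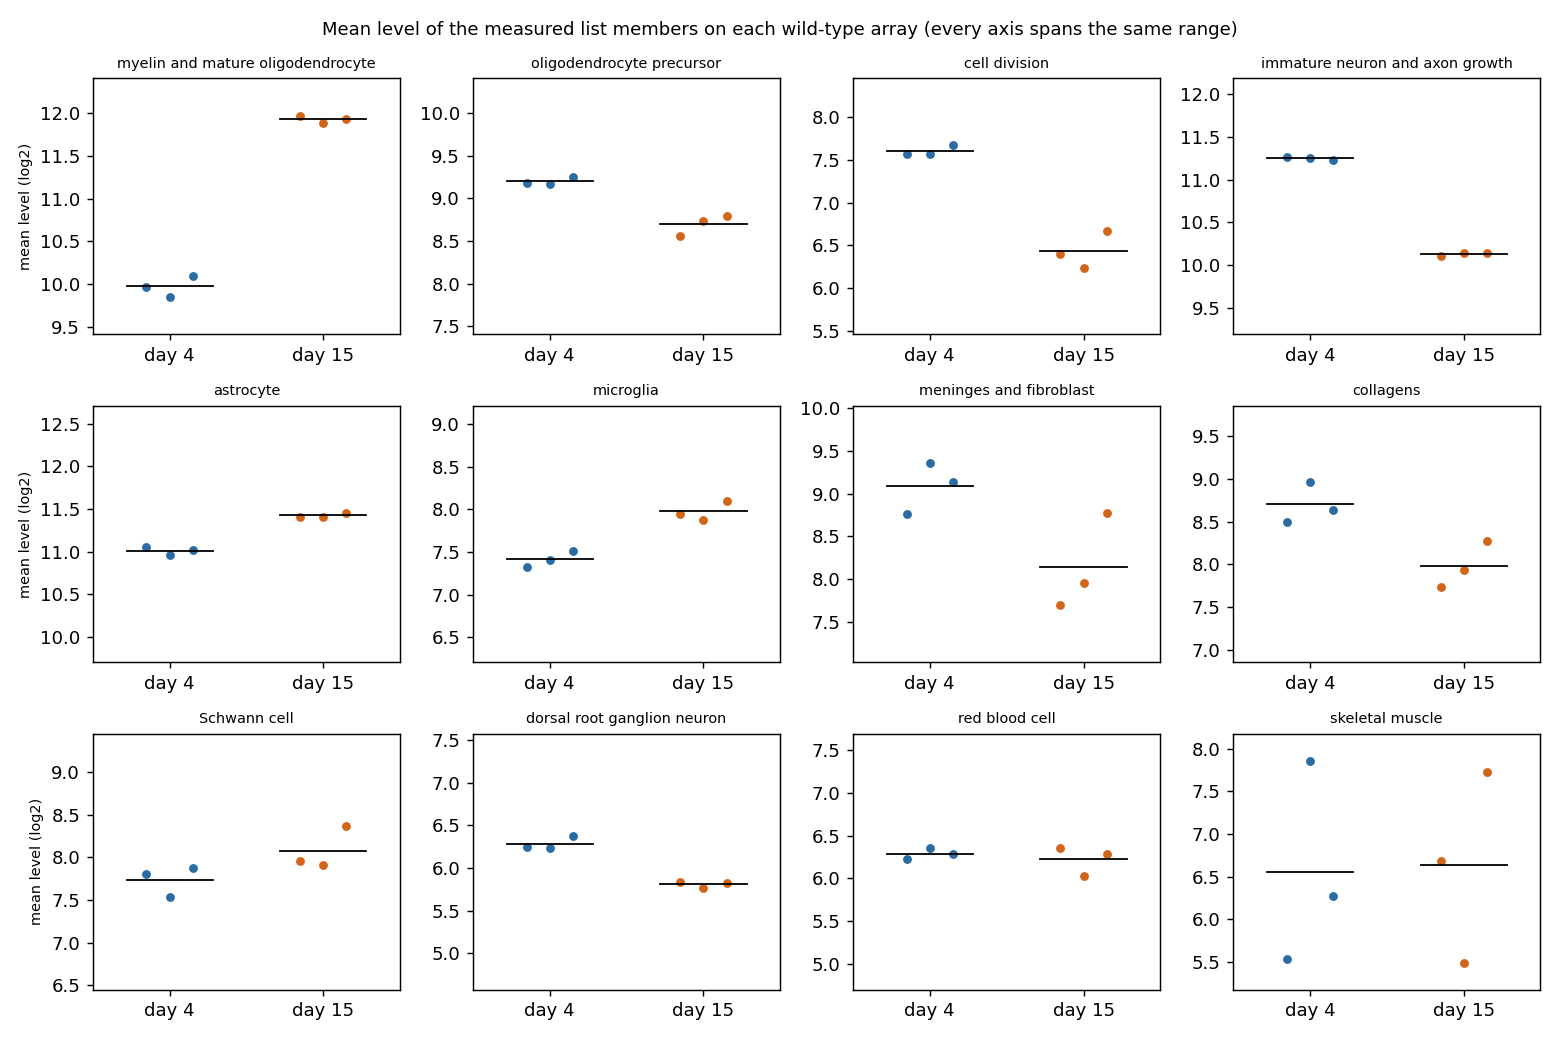
Mean log2 level of the measured genes of 12 lists (panels) on each of the 6 wild-type arrays, blue for day 4 and orange for day 15, with a bar at the mean of 3; every panel spans the same range. The days part in the myelin, cell division and immature neuron panels, and replicate 3 of day 15 stands near day 4 in the meninges panel. In the skeletal muscle panel the arrays spread from 5.53 to 7.86 at day 4 and from 5.49 to 7.73 at day 15.

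Genes of energy use and of hormone response also differed between the days. Of 40 nuclear-coded subunits of the respiratory chain 19 rose and 0 fell, by small amounts (median 0.13; 23 and 0 at an unadjusted p under 0.05); Ndufb3 rose by 0.41, Ndufs1 by 0.34 and Ndufv1 by 0.33, and Sdha by 0.50 with probe sets from -0.14 to 0.85. Without replicate 2 of day 4 only 12 rose. Of 22 genes of glycolysis and lactate 12 rose and 6 fell (median 0.34). The lactate dehydrogenase subunits went in opposite directions: Ldhb from 12.39, 12.38 and 12.53 to 13.10, 13.07 and 12.97, a rise of 0.61 ± 0.07 (SE, adjusted p = 1.41e-05), and Ldha from 11.38, 11.43 and 11.37 to 10.46, 10.39 and 10.65, a fall of 0.89 ± 0.07 (SE, adjusted p = 1.07e-06). Pdk2, a kinase of pyruvate dehydrogenase, rose by 0.98, the glucose carrier Slc2a1 by 0.95 and Pkm by 0.89. Pfkp, Hk1 and Pfkl, of the first steps, fell by 0.47, 0.44 and 0.41.

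Of 16 glucocorticoid-responsive genes 9 rose and 1 fell, with a median of 0.90. Tsc22d3, a leucine zipper protein induced by steroids, rose from 10.03, 9.99 and 10.10 to 11.45, 11.37 and 11.45, by 1.38 ± 0.09 (SE, adjusted p = 1.88e-07), with probe sets from -0.11 to 1.56. The metallothioneins Mt2 and Mt1, which bind zinc, rose by 1.88 and 1.75 and the clock gene Per1 by 1.09, while the cell cycle inhibitor Cdkn1a fell by 0.53. Of 13 thyroid hormone and retinoid genes 5 rose and 3 fell (median -0.08). Dio2, which makes the active hormone, rose by 1.80, Aldh1a1 by 1.79, Klf9 by 1.73 and Hr by 1.68, and the receptor Thra fell by 0.47, Rxrg by 0.66 and Aldh1a3 by 0.59. For Dio2 (-0.10 to 1.80), Klf9 (-0.04 to 2.06) and Thra (-0.47 to 0.16) other probe sets had the opposite sign. Of 14 immediate early genes 5 rose and 0 fell (median 0.01), among them Egr1 (1.30), Arc (0.89), Dusp1 (0.87) and Junb (0.54). At an unadjusted p under 0.05 the counts were 5 and 1, and 1 fell without replicate 3 of day 15.

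Other tissues in a sample were looked for by their markers. Skeletal muscle genes had a mean level of 5.53, 7.86 and 6.27 at day 4 and 6.68, 5.49 and 7.73 at day 15, so the spread within each day was wider than the difference between the day means. Of 16 only Pvalb passed, which neurons also express (1 higher and 1 lower at an unadjusted p under 0.05). Without replicate 1 of day 4 1 member was lower, and with the muscle level as a covariate 5 were. That covariate is the mean of these same 16 genes, so the 5 do not show a fall of muscle genes between the days. Of 9 Schwann cell genes, which include some that other cells share, 5 rose and 1 fell: Cdh19 rose by 2.75, Pmp22 and S100a4 by 0.54 and Fxyd3 by 0.47, and Sox2 fell by 0.99. Only 3 of the 9 rose without replicate 3 of day 15 or without replicate 2 of day 4, and without replicate 3 of day 15 2 fell. Of 8 sensory ganglion genes 3 fell and 0 rose (4 and 0 at an unadjusted p under 0.05), Pou4f1 by 1.47, Isl1 by 1.01 and Trpv1, within background, by 0.28; Trpv1 did not pass without replicate 1 of day 4. Of 8 red cell genes 1 rose, Add2 by 0.49, a gene that neurons use too, with probe sets from -0.87 to 0.54. Of 12 cartilage and bone genes 2 rose and 2 fell, with Sparc at 0.74, Sp7 at 0.26, Alpl at -0.60 and Col11a1 at -0.44; Sp7 overlapped between the days and 1 gene was higher without replicate 3 of day 15 or without 1 or 3 of day 4. Of 16 genes of ependyma and cilia 3 rose and 2 fell, Ccdc153 at 0.98 with overlapping groups, Dnaic1 at 0.77, Rarres2 at 0.33, Enkur at -0.41 and Hydin at -0.16; Ccdc153 did not pass without replicate 2 or 3 of day 15 or 1 of day 4, and at most 1 gene fell when any array but replicate 3 of day 4 was left out, 0 without replicate 2 of day 4.

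The same day contrast was measured in the Olig2cre/DA-Cat arrays, whose levels do not enter the wild-type differences. The spread of each gene was estimated from all 12 arrays together, and its probe set was chosen over them. Calls in the genotypes are therefore not independent. There 21.8% of genes were higher at day 15 (3965) and 26.3% lower (4779). Of the 3869 genes that rose in wild type 3177 rose there too, 82.1% of the wild-type list and 80.1% of the other, and of the 4292 that fell 3746 fell, 87.3% and 78.4%. Past the threshold in the opposite direction were 8 and 9 genes. All 15 genes with the largest rises rose in Olig2cre/DA-Cat, by 2.05 to 5.55, and all 15 with the largest falls fell, by -3.76 to -1.72; Opalin was at 5.30 in wild type and at 5.28 there. The difference of the day effects itself passed in 64 genes, 0.352% of those tested, 35 of them above 0 and 29 below, and 57 of the 64 were among the genes called in wild type. None of the 30 genes with the largest wild-type differences was among the 64, but 15 of the 27 myelin and mature oligodendrocyte genes were. All 27 rose in both genotypes, with a list median of 1.95 for wild type against 2.95 for Olig2cre/DA-Cat. Whether the larger differences came from lower levels at day 4 or higher ones at day 15 was not examined here.

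**Figure D5:**
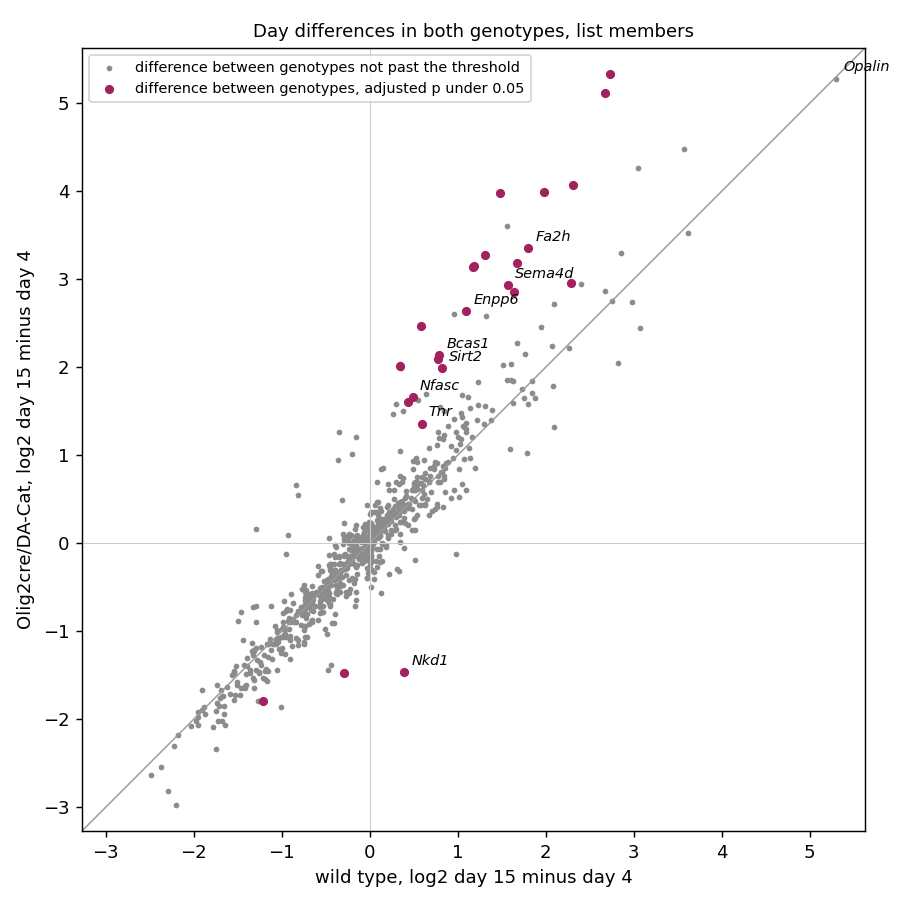
Log2 difference between the days in wild type (x axis) and in Olig2cre/DA-Cat (y axis) for 803 genes of the lists; the diagonal marks equal differences, and purple points are the 25 genes whose difference between genotypes passed the threshold. Most points lie along the diagonal, Opalin at 5.30 and 5.28, and most purple points lie above it, such as Fa2h at 1.80 and 3.35.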

How the data were processed

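Each of 12 samples of spinal cord RNA, labelled with biotin, was hybridised to 1 Affymetrix 3' expression array. The deposited values are 1 log2 signal per probe set and array; the range of the values shows the scale, and the background correction and normalization are not given in the sources used here. The platform annotation pairs 34958 of 45101 probe sets with a single symbol, which gave 18194 genes; each was represented by its brightest probe set on average over the 12 arrays, without a filter on brightness. The 4 groups were fitted together in limma 3.58.1 under R 4.3.3 (8 residual and 3.96 prior degrees of freedom), two-sided, with Benjamini-Hochberg adjustment over all genes and a threshold of 0.05; all adjusted p-values are limma's. The fit was tested on simulated data. Array data carry no read depth, and the number of arrays limits the precision.

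Named genes are the 15 with the highest and 15 with the lowest difference among genes past the threshold whose days do not overlap and whose higher mean is at least 6, up to 4 list members per direction with the smallest p, and the members of the pairs; clone names and genes of the sex-linked list were left out. Xist, Eif2s3y, Rbfox3, Mog, Mbp, Dcx, Chat, Slc18a3, Mki67, Plk1, Ccnb2, Tpx2 and Tyms fall outside this rule and were chosen after their values were seen. The members, lists and pairs were chosen with earlier results of these data known. Of 888 list genes 807 were measured; the others were not analysed here. Of 280 named genes 172 have more than 1 probe set, and 39 of these have probe sets of both signs. Alternatives were other scalings, limma settings, brightness filters, probe set averaging, array weights, covariates, the replicate block and leaving out each array.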

Additional observations from a re-analysis of the deposited data

Results flagged for a closer look

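For 10 of the genes named above the change between the days differed between the genotypes by the interaction test of limma (adjusted p under 0.05). The day difference was larger in Olig2cre/DA-Cat than in wild type by 1.55 for Fa2h, 1.54 for Enpp6, 1.36 for Sema4d, 1.35 for Bcas1, 1.17 for Sirt2, 1.17 for Nfasc, 0.76 for Tnr and 0.67 for Hapln2. A lower level at day 4 or a higher one at day 15 would each give this. The Olig2cre/DA-Cat levels are not given here, so the values do not show higher expression in that genotype. For Hmga2, which fell in both, the difference was -0.57. Nkd1 rose by 0.39 in wild type and was at -1.46 in Olig2cre/DA-Cat, a difference of -1.85; its wild-type call depends on single arrays, and its 4 probe sets ranged from -0.08 to 0.50.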

How the results depend on the processing

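Over the alternatives the number of genes higher at day 15 ranged from 3151 to 4205 and of genes lower from 3027 to 4693, against 3869 and 4292; the lowest values came without the dimmer 50% of genes, where fewer were tested. Leaving out 1 array gave 3330 to 3840 higher and 3740 to 4141 lower, and 450 to 504 and 517 to 635 by at least 2-fold. With the mean of a gene's probe sets 361 genes fell by at least 2-fold, against 559. Of 272 named genes past the threshold 243 kept their call in every alternative that tested them, and 0 turned direction. Most were picked from these same arrays for a small p or a large difference, so this count is no independent check. Among all called genes, leaving out 1 array kept 3256 to 3600 of the 3869 higher and 3643 to 3907 of the 4292 lower. The share of calls that were higher lay between 45.7% and 51%. Same-numbered arrays of the 2 days did not deviate together (correlations of 0.0505, -0.163 and 0.0796), so the numbers were not taken as pairs; a fit of the wild-type arrays with a replicate block gave 3616 higher and 4063 lower, and 474 and 563 by at least 2-fold. A covariate of the Eif2s3y level, chosen after seeing the data, gave 3854 and 4199. The array medians were nearly equal, so a change common to most genes would not show, and signals near background or near the array maximum understate differences.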
